A study of Mus musculus with 8 samples.

Results

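The FLAG sites of NanogBiD cells were sorted by their position relative to the H3K4me1 peaks of the same cells. NanogBiD is a fusion in which the BRG1 interacting domain of SS18 is joined by a linker to the N-terminus of NANOG, and the labels call it NanogN70. The members were the 74782 FLAG peaks of this arm, out of 425777 peaks in the 8 lists of the series. A FLAG site, read at the base of its summit, was called inside when that base lay in an H3K4me1 peak. It was called flanked when the nearest H3K4me1 peak was 1 to 1000 bp away, and far beyond that. The 57156 H3K4me1 peaks of NanogBiD cells were the reference for these classes.

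The libraries were CUT&Tag, in which an antibody tethers a transposase that cuts and tags nearby DNA. The cells were OG2 mouse embryonic fibroblasts (MEFs) isolated at E13.5 from female or male embryos of OG2 males crossed to 129 females. They had received retroviral Oct4 with either NanogBiD or unmodified Nanog (NanogWT), both 3 × FLAG-tagged per the study's methods, and were collected on day 5 in iCD3 medium. Each of the 8 groups (FLAG, BRG1, H3K27ac and H3K4me1 in each arm) was 1 deposited list made from merged replicates, so no test between samples was possible. Intervals below are 95% Wilson or Newcombe intervals over sites, and for odds ratios 95% Wald intervals on the log scale. All of them cover counting error only. No uninfected or untagged control was analysed here. The populations were mixed, so a taller peak can stand for more cells bound or more binding per cell, which cannot be told apart.

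NANOG is a homeodomain transcription factor of the pluripotency network. SS18 is a subunit of the BAF chromatin remodelling complex, whose ATPase is BRG1. H3K4me1, monomethylation of histone H3 at lysine 4, is deposited mainly by MLL3 and MLL4. It is known as a mark of enhancers, primed or active, and of the shoulders of active promoters, whose centres usually carry H3K4me3 instead. H3K27ac, placed by p300 and CBP, separates active from primed elements. The labelled cell type was checked in the H3K27ac list of NanogBiD cells, in which 58.8% of all protein-coding genes had a peak within 2 kb of a start. Of 8 fibroblast markers 7 had one, with Prrx1 the exception. Among 6 pluripotency markers only Dppa3 and Tdgf1 had one, as did Krt8 alone of 5 epithelial markers. Cdh5, Kdr and Tek had one among 4 endothelial markers, and Ptprc and Cd68 among 4 blood markers. With so few genes per list and endothelial markers near the fibroblast rate, these counts do not by themselves identify the cells.

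The sequences around the sites with the highest peak scores in each class are shown first, because the classes differed in base composition and in the words found at their summits. Each is the window of 50 bases on either side of the summit, mm10, plus strand. Capitals mark the words searched for, named after each set. Of the 4 inside sites, 1 lay at chr16:42875533-42875633 within 2 kb of an annotated start, 32.1 kb from the nearest protein-coding one, that of the zinc finger repressor gene Zbtb20, and 1 lay at chr5:136403635-136403735 in an intron, 30.3 kb from the start of Cux1, a homeobox factor gene. Another was at chr17:70414454-70414554 near Dlgap1, a synaptic scaffold gene. The remaining inside site, at chr17:39844108-39844208, fell in Gm26917 next to an annotated ribosomal RNA gene, a sequence with near-identical copies, so its reads could come from any copy.
Zbtb20: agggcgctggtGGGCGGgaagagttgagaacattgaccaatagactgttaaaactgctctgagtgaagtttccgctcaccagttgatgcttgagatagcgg
Cux1: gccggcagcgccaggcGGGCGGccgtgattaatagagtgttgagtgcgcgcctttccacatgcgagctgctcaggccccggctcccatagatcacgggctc
Dlgap1: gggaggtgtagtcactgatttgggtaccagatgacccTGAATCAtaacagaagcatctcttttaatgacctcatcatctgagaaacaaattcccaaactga
Gm26917: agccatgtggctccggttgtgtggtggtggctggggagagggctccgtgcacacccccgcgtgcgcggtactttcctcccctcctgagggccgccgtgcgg
The Zbtb20 and Cux1 windows held the SP/KLF word GGGCGG and the Dlgap1 window held the AP-1 word TGANTCA. The FLAG heights were 77 tags at Zbtb20, 65 at Cux1, 61 at Dlgap1 and 91 at Gm26917.

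The highest-scoring flanked sites lay at chr17:83036039-83036139, 117 bp from an H3K4me1 peak, at chr9:124425055-124425155, 326 bp from one, at chr3:83079517-83079617, 375 bp from one, and at chr12:59927112-59927212, 152 bp from one. They are named by the nearest protein-coding start, which lay 179, 0.951, 24.0 and 707 kb away in this order. Pkdcc encodes a secreted kinase, Ppp2r3d a regulatory subunit of protein phosphatase 2A, Plrg1 a spliceosome component and Fbxo33 an F-box protein.
Pkdcc: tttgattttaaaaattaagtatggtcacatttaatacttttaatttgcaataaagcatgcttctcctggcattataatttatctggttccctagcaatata
Ppp2r3d: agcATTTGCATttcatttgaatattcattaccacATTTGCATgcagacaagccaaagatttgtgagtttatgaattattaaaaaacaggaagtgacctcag
Plrg1: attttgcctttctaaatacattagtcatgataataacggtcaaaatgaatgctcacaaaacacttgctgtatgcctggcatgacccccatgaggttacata
Fbxo33: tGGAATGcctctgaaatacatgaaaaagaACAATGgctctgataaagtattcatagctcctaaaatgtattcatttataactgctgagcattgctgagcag
The Ppp2r3d window held the OCT octamer ATGCAAAT, read on the other strand, at 2 places. The Fbxo33 window held a TEAD word (GGAATG) and a SOX word (ACAATG). The FLAG heights were 49, 47, 51 and 49 tags in this order.

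The highest-scoring far sites lay at chr8:58360563-58360663, 101 kb from the nearest H3K4me1 peak, at chr2:114412495-114412595, 79.7 kb away, at chr14:109840878-109840978, 50.3 kb away, and at chr13:94546267-94546367, 16.8 kb away. The nearest starts were 340 kb away for Galntl6, a glycosyltransferase gene, 211 kb for the zinc finger gene Zfp770, 914 kb for Slitrk6, a neuronal transmembrane protein gene, and 73.5 kb for Ap3b1, an adaptor complex gene.
Galntl6: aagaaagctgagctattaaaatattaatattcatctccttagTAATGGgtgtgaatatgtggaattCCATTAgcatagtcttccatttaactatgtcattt
Zfp770: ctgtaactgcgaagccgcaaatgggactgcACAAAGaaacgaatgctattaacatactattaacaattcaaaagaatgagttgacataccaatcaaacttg
Slitrk6: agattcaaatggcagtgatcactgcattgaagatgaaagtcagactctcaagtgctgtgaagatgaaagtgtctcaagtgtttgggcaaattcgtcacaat
Ap3b1: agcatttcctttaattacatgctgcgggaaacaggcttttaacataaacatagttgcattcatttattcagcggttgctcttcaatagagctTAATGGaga
The Galntl6 window held the homeodomain word TAATGG, on both strands, and the Ap3b1 window held it once, while the Zfp770 window held the SOX word ACAAAG. The FLAG heights were 46, 62, 74 and 55 tags. All 12 sites shown had BRG1 and H3K27ac peaks in NanogBiD cells and a FLAG peak in NanogWT cells. These sites were picked by score, and of all FLAG sites of 30 tags or more 99.1% had the BRG1, 89.0% the H3K27ac and 93.0% the NanogWT FLAG peak.

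NanogBiD FLAG sites divided almost evenly between H3K4me1 peaks and sites far from them when the lists were used as deposited, with few in between. Of the 74782 sites, 34437 were inside (46.0%, 45.7 to 46.4), 3394 were flanked (4.54%, 4.39 to 4.69) and 36951 were far (49.4%, 49.1 to 49.8). H3K4me1 peaks covered 2.32% of the 2559 Mb assembled on chromosomes 1 to 19 and X, a further 4.29% lay within 1 kb of one, and 93.4% was far. The split moved with the length of the lists. With a score of at least 100 in both lists 28.3% were inside and 70.7% far, and of the 10000 highest-scoring FLAG peaks 76.1% were inside the full H3K4me1 list and 19.5% far. The flanked class of the full lists held about the share of sites that its share of the genome would hold. Of the flanked sites, 51 had an H3K4me1 peak within 1 kb on both sides. The other flanked sites had it on 1 side, and 62.2% of flanked FLAG peaks overlapped the H3K4me1 peak although their summit lay outside it. Within H3K4me1 peaks the FLAG summit lay close to the H3K4me1 summit, at a median of 103 bp, and 30.3% were within 50 bp. The median distance of an inside summit to the nearer edge was 357 bp. For far sites the median distance to an H3K4me1 peak was 13.3 kb (interquartile range 6.22 to 30.6). A far site is one where no H3K4me1 peak was called at the depth of that library, and the lowest summit in the list had 8 tags. Read depths were not analysed here, as the lists give only peaks.

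FLAG peaks inside H3K4me1 peaks were taller than those far from them, and the tallest FLAG sites were mostly inside. The summit height, the number of tags piled up at the summit, had a median of 18 inside (interquartile range 13 to 25), 15 at flanked sites (11 to 20) and 14 at far sites (11 to 18). The highest values were 91, 56 and 76 tags. Peak width fell in the same order, with medians of 1050, 998.5 and 789 bp. The distributions overlapped over most of their range. The share of sites inside was 29.9% (28.9 to 31.0) among FLAG summits under 10 tags and 36.0% at 10 to 14 tags. It was 46.4% at 15 to 19 tags, 56.9% at 20 to 29 and 73.2% (72.2 to 74.2) at 30 or more. The flanked share stayed between 2.96% and 4.96% in these bins. Among distal sites alone, more than 2 kb from any annotated start, the median heights were 17 inside, 14 flanked and 13 far. When both lists were cut to their 20000 highest-scoring peaks, the medians were 26 inside and 25 far, and 38.6% of sites were inside.

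**Figure D1:**
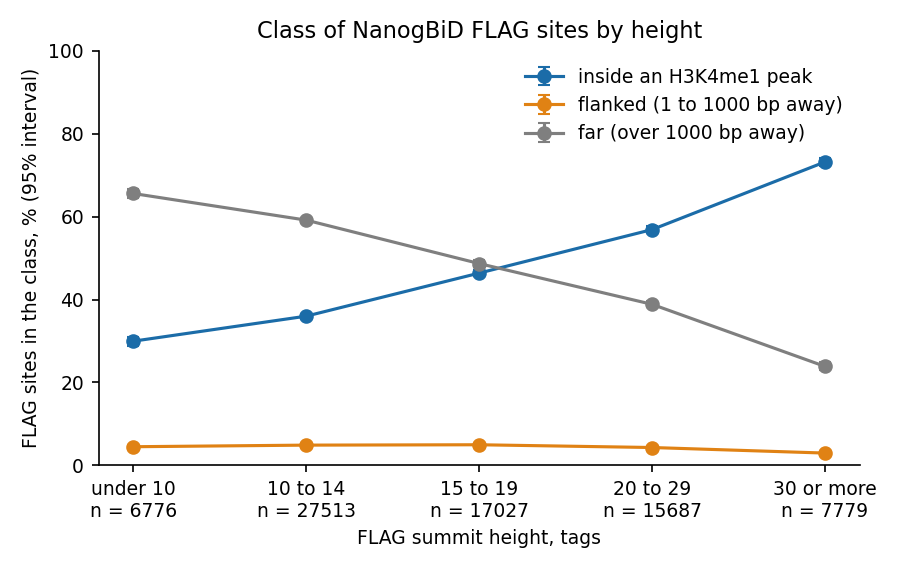
Share of NanogBiD FLAG sites in each class (y axis, %) for 5 bins of FLAG summit height in tags (x axis), with 95% Wilson intervals. The inside share rises from 29.9% in the lowest bin to 73.2% in the highest, and the far share falls from 65.6% to 23.9%.

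The height of the FLAG peak changed little at the 1 kb limit. Sites in the last 100 bp within the limit (n = 260) had a median of 16 tags, and those in the first 100 bp beyond it (n = 244) had 15.5. Sites just outside an H3K4me1 peak, at 1 to 250 bp, had a median of 14. The median was still 16 at 2 to 5 kb and was 12 beyond 100 kb, where 2791 sites lay.

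The inside class was richest in promoters, the flanked class came next and the far class was mostly intronic and intergenic. Within 2 kb of an annotated start, of any transcript type, lay 33.9% of inside sites (33.4 to 34.4), 27.5% of flanked sites (26.0 to 29.02) and 12.7% of far sites (12.4 to 13.1). Such windows covered 11.2% of the genome. The flanked minus inside difference was -6.38 percentage points (-7.94 to -4.77). Its interval included 0 with a score of at least 100 (-3.84 points, -8.40 to 0.851) and with a height of at least 15 tags (-0.720 points, -4.40 to 3.004), so the order of these classes was not resolved there. Introns held 34.0% of inside, 38.0% of flanked and 44.4% of far sites, and intergenic DNA held 30.02%, 32.3% and 40.4%. Exons beyond promoters held between 2.16% and 2.54%. The median distance to a protein-coding start was 21.3 kb for inside, 32.3 kb for flanked and 47.5 kb for far sites.

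Around protein-coding starts the 3 classes followed one another outward. FLAG sites in the 250 bp upstream of a start were inside an H3K4me1 peak in 84.7% of cases (n = 4591), and those in the 250 bp downstream in 84.5% (n = 3423). The flanked share was 3.03% upstream and 3.04% downstream in these bins. It reached 15.1% at 1 to 1.5 kb upstream (n = 383) and 18.1% at 1 to 1.5 kb downstream (n = 425), then was 2.43% at 2 to 3 kb upstream and 6.61% at 2 to 3 kb downstream. The far share was 59.8% at 2 to 3 kb upstream and 59.5% at 3 to 5 kb downstream, higher than at 10 to 20 kb (50.4% and 51.3%). Of the 933 flanked sites at promoters, 52.1% (48.9 to 55.3) had their H3K4me1 summit nearer to the start than the FLAG summit. At 41.5% of them the H3K4me1 summit was within 250 bp of a start.

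**Figure D2:**
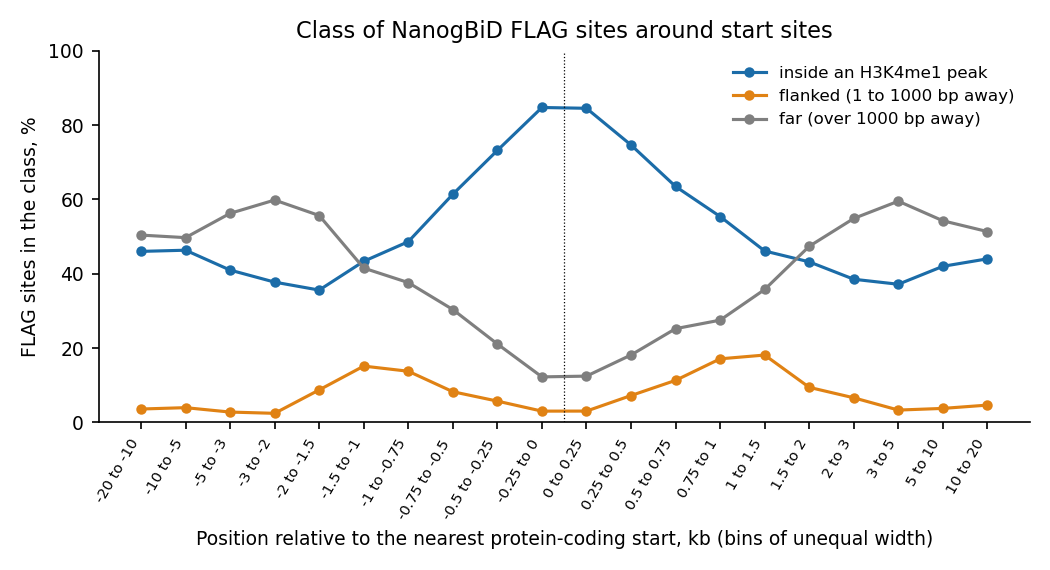
Share of FLAG sites in each class (y axis, %) by position of the summit relative to the nearest protein-coding start (x axis, kb, bins of unequal width, upstream negative). Inside sites peak at the start (84.7%), flanked sites at 1 to 1.5 kb on either side, and far sites at 2 to 5 kb.

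CpG content separated the promoter sites further. A window of 250 bases on either side of the summit was called CpG-rich when its GC content was at least 50% and its CpG ratio, observed over expected, at least 0.6. Of 7901 FLAG sites at CpG-rich promoters, 84.5% (83.6 to 85.2) were inside, against 53.1% (52.1 to 54.1) of 9401 sites at other promoters. The 946 far sites at CpG-rich promoters had a median height of 18 tags, 89.4% had a BRG1 peak and 95.03% an H3K27ac peak. The 3760 far sites at other promoters had a median of 14 tags, with BRG1 at 53.4% and H3K27ac at 35.7%.

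BRG1 and H3K27ac were found at most FLAG sites inside H3K4me1 peaks and at fewer of the far sites. A BRG1 peak of NanogBiD cells overlapped 81.4% of inside FLAG peaks (81.0 to 81.8), 63.8% of flanked (62.1 to 65.4) and 49.2% of far (48.7 to 49.7). The inside minus far difference was 32.2 percentage points (31.5 to 32.8). For H3K27ac the shares were 73.4% (73.0 to 73.9), 48.9% (47.3 to 50.6) and 24.9%, a difference of 48.6 points (47.9 to 49.2). Both were present at 66.8% of inside, 40.9% of flanked and 20.5% of far sites. BRG1 without H3K27ac was the state of 14.6% of inside, 22.8% of flanked and 28.7% of far sites. Neither was called at 11.9%, 28.2% and 46.4%. Presence was read as an overlap of at least 1 bp with the whole FLAG peak. Inside FLAG peaks were wider than far ones (medians of 1050 and 789 bp), and no allowance was made for width. The inside minus far differences were of like size over all promoters (28.8 points for BRG1, 42.8 for H3K27ac) and at distal sites (29.8 and 43.2). Promoters were not alike in this. At CpG-rich promoters BRG1 was at 95.5% of inside and 89.4% of far sites, and H3K27ac at 98.2% and 95.03%. At other promoters the shares were 81.2% and 53.4% for BRG1, and 80.1% and 35.7% for H3K27ac.

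FLAG height moved with both. Among sites of 30 tags or more, BRG1 was at 99.8% of inside and 96.9% of far sites, a difference of 2.97 points (2.25 to 3.86), while H3K27ac was at 95.05% and 71.1%, a difference of 24.0 points (21.9 to 26.2). Under 10 tags the differences were 23.2 points for BRG1 and 35.7 for H3K27ac. With the 20000 highest-scoring peaks of both lists the BRG1 difference was 2.17 points and the H3K27ac difference 23.7 points. The BRG1 shares of tall sites lie near 100%, which bounds their difference in points. The odds of a BRG1 peak, inside over far, were 3.49 (3.09 to 3.94) under 10 tags and 20.4 (10.1 to 41.2) at 30 tags or more, where 9 inside and 58 far sites lacked one. For H3K27ac the odds ratios were 8.77 (7.64 to 10.1) and 7.81 (6.68 to 9.13). The flanked share lay between the other two in each height bin for both targets.

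**Figure D3:**
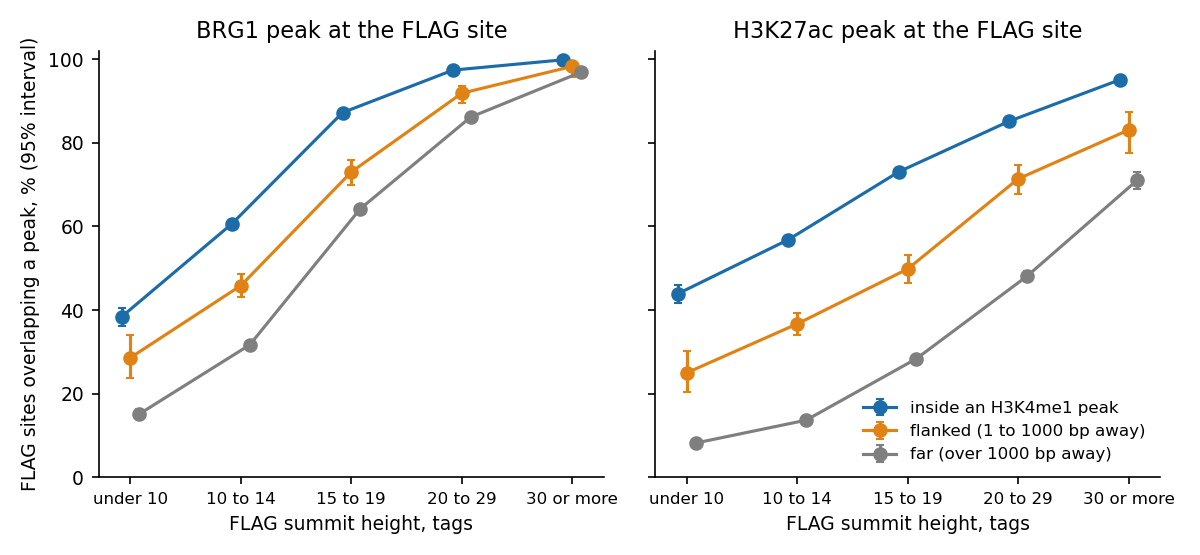
Share of FLAG sites that overlap a BRG1 peak (left) or an H3K27ac peak (right) of NanogBiD cells (y axis, %) by FLAG summit height in tags (x axis) and class, with 95% Wilson intervals. In the tallest bin the BRG1 shares are near their ceiling, at 96.9% to 99.8%, and H3K27ac is at 95.05% inside and 71.1% far.

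Both shares were lower at long distances from the H3K4me1 peak, though not in every step. H3K27ac was at 46.4% of sites 1 to 250 bp away, 56.3% between 250 and 500 bp, 49.7% between 500 and 750 bp, 42.6% in the first 100 bp beyond 1 kb, 27.3% at 2 to 5 kb and 13.6% beyond 100 kb. BRG1 was at 65.9%, 67.5%, 60.1%, 59.4%, 50.7% and 43.0% of the same sites. Neither share dropped at the 1 kb limit, where the last 100 bp within it gave 43.1% for H3K27ac and 56.9% for BRG1.

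Sites bound by NanogWT as well were more often inside. A NanogWT FLAG peak overlapped 78.4% of inside sites, 62.1% of flanked sites and 43.2% of far sites of the fusion. Placed against the H3K4me1 peaks of NanogWT cells, 76.4% of the inside sites were again inside and 19.8% were far. Of the far sites, 76.0% were far there too and 17.9% were inside. Among far sites, 30.1% of those with a NanogWT FLAG peak (n = 15970) and 8.61% of those without one (n = 20981) lay inside NanogWT H3K4me1 peaks. In the NanogWT arm, with its own FLAG and H3K4me1 lists, 59.5% of 58940 sites were inside, 6.14% flanked and 34.4% far. Its H3K4me1 list was longer (72242 peaks), and when every list was cut to 20000 peaks by score the inside shares were 38.6% for NanogBiD and 37.6% for NanogWT. The inside minus far differences in the NanogWT arm were 2 tags for median height, 38.1 points for BRG1 and 40.0 points for H3K27ac, and the flanked minus inside promoter difference was -6.06 points. The arms were not tested against each other, with 1 list each.

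The words at the summits differed between classes, by up to 16.1 points at promoters for the SP/KLF word. Words were searched on both strands of the 101-base window, and their background was read in windows of this length tiled over chromosome 19 and in windows 1 kb from the sites. Promoter windows inside H3K4me1 peaks held the SP/KLF word in 24.4% of cases, against 11.4% for flanked and 8.20% for far ones (inside minus far 16.1 points, 15.02 to 17.2). In windows 1 kb away it was in 3.37%, 8.79% and 3.27%. The ETS word CCGGAAG was in 4.04%, 2.14% and 1.66%. GGGCGG was in 5.68% of all FLAG windows and 1.22% of chromosome 19 windows, and CCGGAAG in 1.08% and 0.335%. In the other direction, the homeodomain word TAATGG, which holds the TAAT core bound by NANOG-type factors, was in 2.75% of inside, 4.39% of flanked and 6.31% of far promoter windows. The SOX words (ACAAAG or ACAATG) were in 7.85%, 12.1% and 15.4%, in 16.7% of all FLAG windows and in 14.8% of chromosome 19 windows. In windows 1 kb from the promoter sites TAATGG was in 3.56%, 3.64% and 3.68% and the SOX words in 13.0%, 13.1% and 13.51%. The inside shares of both words were below, and the far shares above, those of the windows beside them, which was not tested.

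At distal sites TAATGG was in 6.98% of inside (6.66 to 7.32), 9.64% of flanked (8.53 to 10.9) and 9.27% of far windows (8.95 to 9.59). It was in 7.32% of all FLAG windows, 4.18% of chromosome 19 windows and 3.88% to 4.32% of windows 1 kb away from the distal sites. The inside minus far difference was -2.29 points (-2.74 to -1.83), and among distal sites of 20 tags or more it was -2.02 (-2.98 to -1.06). AP-1 is the family of FOS and JUN factors that is abundant in fibroblasts. Its word was in 13.1% of inside, 9.11% of flanked and 11.4% of far distal windows, in 10.4% of all FLAG windows and in 2.93% of chromosome 19 windows. Windows 1 kb from the distal sites held it in 3.17% to 3.42% of cases. At promoters the order was the other way, with 4.31% inside and 7.84% far (-3.53 points, -4.41 to -2.70), and over all sites the shares were 10.1% and 10.9%. The distal AP-1 difference between inside and far was 2.84 points (1.74 to 3.93) at 20 tags or more and 0.205 points (-0.446 to 0.868) under 20 tags. The OCT octamer was in 2.81% of inside and 2.83% of far distal windows, a difference of -0.0194 points (-0.298 to 0.264), against 0.777% of chromosome 19 windows. At promoters it was in 0.875% and 2.42%, a difference of -1.55 points (-2.05 to -1.10). The composite OCT-SOX word, which contains part of the octamer, was in 0.154% of inside and 0.186% of far distal windows and in 0.0213% of chromosome 19 windows. The CTCF word was in 0.369% and 0.133%, against 0.0534% on chromosome 19. TEAD (GGAATG) was in 7.45% and 6.96%, RUNX (TGTGGTT) in 3.75% and 3.89% and NF-Y (CCAATNAG) in 1.13% and 1.11%, while chromosome 19 windows held them in 5.42%, 2.403% and 1.09%. Base composition moved with the class. The median GC content of distal windows was 45.7% inside, 41.3% flanked and 40.9% far, and at promoters 59.5%, 47.7% and 44.9%. Its part in the word shares was not tested. A match is a run of letters, not a bound site.

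**Figure D4:**
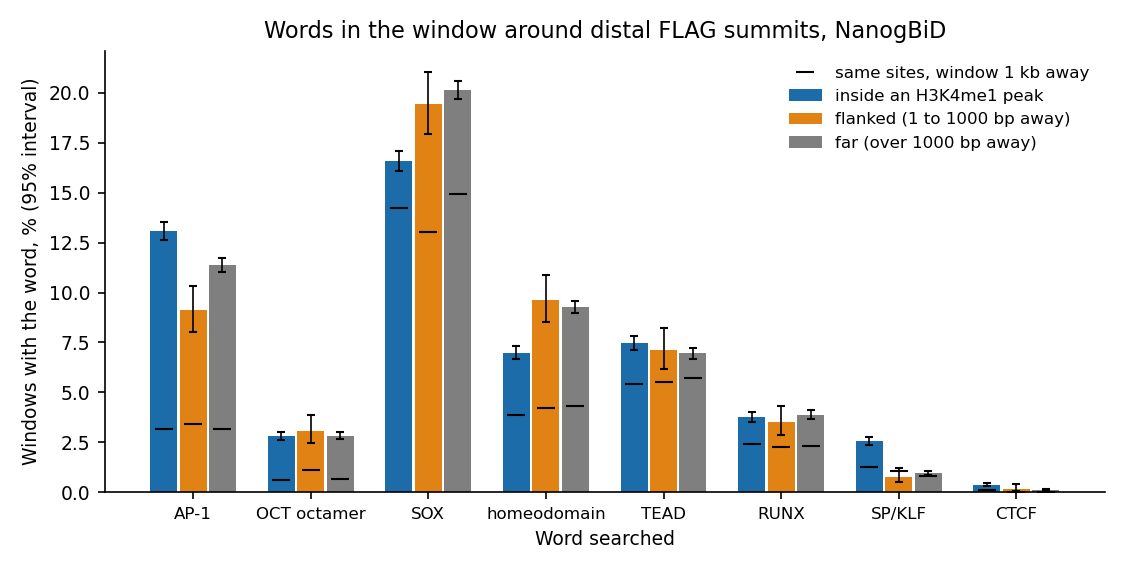
Share of distal FLAG windows holding each word (y axis, %, bars with 95% Wilson intervals) by class, with dashes for windows 1 kb from the same sites. The AP-1 bar is highest for inside sites (13.1%), the homeodomain and SOX bars are lower inside than far.

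By nearest protein-coding start, most genes with FLAG sites had both inside and far ones. Of 21842 protein-coding genes, 59.1% had at least 1 inside site, 12.2% a flanked and 46.6% a far site. Both inside and far sites were assigned to 7937 genes, inside without far to 4969 and far without inside to 2231. A gene with a long neighbourhood can take many sites by this rule, and sites of 1 gene share their locus. The genes with the most inside sites were Pde4d (35 inside, 49 far), Zfp608 (31 and 36), Rbfox1 (30 and 36), Auts2 (29 and 55) and Tenm4 (28 and 53). These encode a phosphodiesterase, a zinc finger protein, an RNA splicing factor, a neurodevelopmental regulator and a teneurin. Auts2, Tenm4 and Pde4d were also among the 5 genes with the most far sites, with Tenm3 (13 inside, 52 far) and the latrophilin gene Adgrl2 (22 and 51). At Auts2 the inside sites had a median of 18 tags and BRG1 at 25 of 29, and the far sites 14 tags and BRG1 at 25 of 55. Flanked sites were most frequent at the cadherin gene Fat3 (10), at the corepressor gene Tle4 (6), at the adhesion gene Sdk1 (6), at Dct (6) and at the forkhead gene Foxp1 (5). The 5 at Foxp1 had 15 to 37 tags and all had a BRG1 peak, while of the 10 at Fat3, with 10 to 29 tags, 6 had one.

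A list of 11 genes picked by hand from the many that the study names was looked up one by one, and these did not share a class. The study chose such genes on data of the same project, so the list is no independent evidence. Of the 10 protein-coding ones 8 had an inside site and 7 a far site, against 59.1% and 46.6% of all genes. Sall4, a zinc finger factor of the pluripotency network, had 1 FLAG site, within 2 kb of its start and inside an H3K4me1 peak, with 14 tags, BRG1 and H3K27ac, and no NanogWT FLAG peak. Of the 6 sites at Esrrb, a nuclear receptor of naive pluripotency, 4 were far, 1 was flanked and 1 was inside. They had 9 to 16 tags, and none coincided with a NanogWT FLAG peak. Dppa5a, a KH-domain protein gene of pluripotent cells, had a far site of 22 tags with neither BRG1 nor H3K27ac, 3.24 kb from its start, and a flanked site of 15 tags with BRG1. No site was assigned to Sox15.

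The Mir302 cluster encodes microRNAs of pluripotent cells. Mir302a is not protein coding, so sites within 20 kb of its start were taken. A FLAG site of 30 tags lay 634 bp from the Mir302a start, far from H3K4me1 at 7.99 kb, with BRG1, H3K27ac and a NanogWT FLAG peak. A second site of 39 tags, 7710 bp from that start, was inside, and the remaining one, of 9 tags, was far. The window of the nearest site, chr3:127544812-127544912, held the word TAATGG. It is shown with those of the far Dppa5a site (chr9:78364887-78364987), which held a SOX word, and of the tallest Dab2 site (chr15:6129823-6129923), which held an AP-1 word.
Mir302a: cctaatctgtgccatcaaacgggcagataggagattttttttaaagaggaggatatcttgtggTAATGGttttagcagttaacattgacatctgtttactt
Dppa5a: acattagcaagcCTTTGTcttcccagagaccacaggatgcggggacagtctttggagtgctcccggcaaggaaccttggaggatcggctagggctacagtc
Dab2: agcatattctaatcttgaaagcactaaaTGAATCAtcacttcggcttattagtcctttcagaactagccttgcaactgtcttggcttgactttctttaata

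Klf4, a reprogramming factor gene, took 37 sites, of which 17 were inside, 4 flanked and 16 far. The tallest, of 49 tags, was inside and lay 397 kb from the gene, and the site at its start, 145 bp upstream, was flanked, with 25 tags, 738 bp from an H3K4me1 peak. Sox2, another reprogramming factor gene, took 9 inside, 1 flanked and 10 far sites. Its tallest, of 32 tags, was inside and 155 kb away. Dab2, an endocytic adaptor gene expressed in fibroblasts, had 6 inside and 15 far sites. The inside ones had 9 to 49 tags and the far ones 7 to 23. Dab2 has several annotated starts. The site 75 bp from one was inside, with 22 tags, and the site 1120 bp from another was far, with 23 tags. Foxb1, a neural forkhead gene, had 4 inside, 3 flanked and 6 far sites, the tallest (37 tags) inside. Olig3, a neural progenitor factor gene, had 2 inside, 1 flanked and 6 far sites, the tallest (21 tags) inside. Thbd, the thrombomodulin gene, had 1 site, inside, of 35 tags, 1.14 kb from its start. Of the 9 genes of this list with an assigned site, the tallest site was inside for Dab2, Klf4, Foxb1, Thbd, Sox2, Olig3 and Sall4, and far for Esrrb and Dppa5a. The same count was not made over all genes, so it marks no trait of this list. Of all FLAG sites, 56.9% were inside at 20 to 29 tags and 73.2% at 30 or more, so picking the tallest favours inside sites.

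Gene lists were described by how many of their genes had an inside or a far site, beside 59.1% and 46.6% of all protein-coding genes. Among 30 pluripotency genes 23 had an inside and 20 a far site. The tallest were at Stat3 (54 tags, inside, 238 bp from the start), the signal transducer of LIF, at Klf5 (51, inside), a Krüppel-like factor, and at the nuclear receptor gene Nr5a2 (49, far, 2051 bp from H3K4me1), where Klf4 reached the same height inside. Among 26 mesenchymal transcription factor genes the counts were 23 and 21, with Twist1 (44 tags), Prrx1 (43) and Runx2 (43) tallest, all 3 inside. Of 15 AP-1 factor genes 13 had an inside and 12 a far site. Fos (56 tags), Jun (55, 94 bp from its start) and Bach2 (50) had the tallest, all inside. Of 19 TEAD and Hippo genes 17 and 16 had them. The tallest were at the matricellular target Ccn1 (53 tags, inside), at the angiomotin family gene Amotl1 (49, far, 3351 bp from H3K4me1, with BRG1 and without H3K27ac) and at the transcription factor gene Tead1 (46, inside).

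Matrix genes had inside sites at 27 of 30 and far sites at 23 of 30. The tallest far site of the whole list, 76 tags, lay in an intron 22.7 kb from the start of Fn1, the fibronectin gene, and 22.0 kb from the nearest H3K4me1 peak. It had BRG1, H3K27ac and a NanogWT FLAG peak and was far by the NanogWT H3K4me1 list too. Fn1 had 5 inside, 1 flanked and 13 far sites. The collagen gene Col5a1 (63 tags) and the periostin gene Postn (52) had inside sites. Of 22 TGF-beta pathway genes 21 had an inside and 18 a far site. The tallest were at the activin receptor gene Acvr2a (57 tags, inside), at Smad4 (55, far, 19.6 kb from H3K4me1), the common mediator of the pathway, and at Inhba (51, inside), an activin subunit gene.

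The remaining lists were epithelial, BAF, lineage and ribosomal. Epithelial genes had inside sites at 14 of 24 and far sites at 9 of 24. The desmoplakin gene Dsp (57 tags, inside), Rab25 (44, inside) and the integrin gene Itga6 (40, far) had the tallest. BAF subunit genes had them at 19 and 12 of 24. Arid1b (53 tags) and both ATPase genes, Smarca2 (40) and Smarca4 (40), which encodes BRG1, had the tallest, all inside. Of 33 lineage regulator genes 21 and 23 had them, with Foxa2 (45 tags, far) and Foxa1 (42, inside) among the tallest. Of 40 ribosomal protein genes 27 and 23 had them, led by Rps19 (45, inside), Rpl38 (45, inside) and Rpl14 (43, flanked).

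Within 2 kb of their own start, 39.1% of all protein-coding genes had an inside, 3.05% a flanked and 9.70% a far site. The inside and far counts were 14 and 5 of 19 for TEAD and Hippo genes, 17 and 4 of 30 for matrix genes and 15 and 3 of 22 for the TGF-beta pathway. They were 6 and 6 of 15 for AP-1 genes, 20 and 13 of 40 for ribosomal protein genes, 10 and 3 of 30 for pluripotency genes and 4 and 1 of 33 for lineage regulators. For mesenchymal factors they were 12 and 8 of 26, for BAF subunits 15 and 4 of 24 and for epithelial genes 6 and 4 of 24. Of all sites assigned to a list, the inside share was 41.0% (36.1 to 46.0) for mesenchymal factors, 43.9% (37.2 to 50.9) for pluripotency genes and 37.3% (28.8 to 46.6) for the list picked from the study. It was 55.4% (46.5 to 63.9) for BAF subunits, 55.0% (45.2 to 64.4) for AP-1 factors and 52.9% (46.8 to 59.0) for the TGF-beta pathway, against 46.0% of all sites. The other 5 lists lay between 43.6% (matrix) and 54.3% (ribosomal). Sites of 1 gene are not independent, so these intervals are too narrow.

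Chromosome X stood apart from the autosomes. Of its 1612 FLAG sites, 18.5% (16.7 to 20.5) were inside H3K4me1 peaks, 2.54% were flanked and 79.0% far. On chromosomes 1 to 19 the inside share ran from 40.8% on chromosome 3 to 53.1% on chromosome 11. Chromosome X had fewer peaks per Mb in every list of the series, and the H3K4me1 lists showed the strongest shortfall. In NanogBiD cells the density on X was 0.127 of the autosomal median for H3K4me1 (2.90 per Mb, autosomes 18.5 to 31.1), 0.322 for FLAG, 0.262 for H3K27ac and 0.287 for BRG1. In NanogWT cells H3K4me1 stood at 0.125 and FLAG at 0.303. FLAG summits on X were also shorter, with a median of 13 tags against 15. Among sites of 20 tags or more the inside share was 37.8% (32.6 to 43.4) on X and 62.6% (62.0 to 63.2) on autosomes, and among sites of 10 to 14 tags 11.6% and 36.6%. The sex of the embryos behind each library is not given in the sources used here. Without X the inside share was 46.7%.

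**Figure D5:**
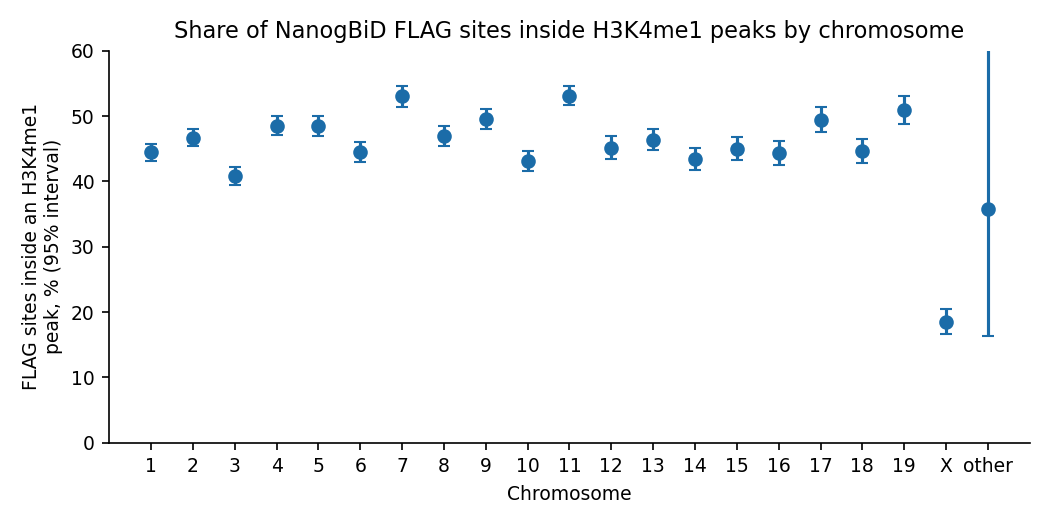
Share of NanogBiD FLAG sites inside H3K4me1 peaks (y axis, %, points with 95% Wilson intervals) on each chromosome (x axis; other, 14 sites on unplaced or other sequences). The autosomes lie between 40.8% and 53.1% and chromosome X at 18.5%.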

How the data were processed

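CUT&Tag libraries of OG2 MEFs on day 5 of reprogramming were deposited as lists of peaks and summits in mm10. Per the labels and the study's methods, the authors trimmed reads with Trim Galore 0.6.4, aligned them with Bowtie2 2.4.5 and filtered them with SAMtools 1.16.1. Replicates were merged and peaks called with MACS 1.4.2, with no control named, so repeats and merging limit what the lists can show. The deposited peak files hold a score, -10 times log10 of the p-value, with a lowest FLAG value of 50. The deposited summit files hold the signal at the summit, in tags (height). Read depth was not analysed here, and the lists held 30859 to 74782 peaks. The H3K4me1 samples are titled so in the labels, whose antibody field reads H3K4me.

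Here, peaks and summits were joined by name and FLAG summits classed against H3K4me1 peaks with Python 3.11.15, pandas 2.3.3 and numpy 2.4.6. BRG1, H3K27ac and NanogWT FLAG were called present where their peak overlapped the FLAG peak by at least 1 bp. Start sites, exons and genes came from GENCODE mouse release 21, and bases from the RefSeq copy of GRCm38 (mm10). Peak ends lay within its chromosome lengths. The code for classing was run on 9000 simulated sites placed by the same definitions, and all were put in the class they were made for. This checks the code alone. Simulated flanked sites lay to the right of a peak, so flanks on the left or on both sides were not tried. Wilson intervals were computed with statsmodels 0.14.6, Newcombe intervals from these, and odds ratio intervals from the counts. Groups were taken from the labels, with 1 list per group, so no test between samples was run. Alternatives were other placements of the site, score, height and list-size minimums, flank widths, joined or pooled H3K4me1 peaks, close summits and promoter widths.

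Sites were named by rule: the 4 highest-scoring per class whose window was under 50% repeat-masked, the 5 genes with most sites per class, the 3 genes of each list with the tallest site, and a list of 11 genes picked by hand from those the study names. The members and the 11 lists were chosen with earlier results of these data known. A gene and a sequence that this rule selects are not reported here.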

Additional observations from a re-analysis of the deposited data

How the results depend on the processing

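The 6 main values were recomputed under 14 other settings, of which 3 (autosomes only, and the 10000 or 20000 highest-scoring FLAG peaks against all H3K4me1 peaks) were chosen after seeing the data. No difference changed sign, although the interval of the promoter difference included 0 with a score of at least 100 or a height of at least 15. With the FLAG peak in place of its summit, 49.0% of sites were inside and 47.8% far, and the promoter difference was -4.23 points. A score of at least 100 left 20232 H3K4me1 and 44371 FLAG peaks. Of these FLAG sites 28.3% were inside and 70.7% far, with differences of 2 tags, -3.84 points (promoter), 13.7 points (BRG1) and 37.7 points (H3K27ac). A height of at least 15 gave 33.1%, 65.1%, -0.720, 14.8 and 40.2 for the same values, leaving the tag difference at 4. The 20000 highest-scoring of both lists gave 38.6%, 60.3%, 1 tag, -8.66, 2.17 and 23.7. The 20000 highest-scoring FLAG peaks against all H3K4me1 peaks gave 68.7%, 26.7%, 3 tags, -9.36, 3.76 and 34.0, and the 10000 highest gave 76.1%, 19.5%, 3 tags, -8.73, 0.830 and 27.6. A flank of 500 bp gave 51.3% far, -9.77 points (promoter) and 47.8 points (H3K27ac), and one of 2 kb gave 46.6% far. With H3K4me1 peaks of both arms, 56.3% were inside and 37.5% far, with -9.27 points (promoter) and 50.5 points (H3K27ac). Promoters of 1 kb bear on the promoter difference alone and gave -9.93 points. Autosomes alone gave 46.7% inside and 48.8% far. The BRG1 and H3K27ac differences and the inside and far shares thus depended on where the lists were cut. Under these cuts the height difference ran from 1 to 4 tags and the promoter difference from -9.36 to -0.720 points. The cause was not tested.

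No paired analysis was possible because replicates were merged into 1 list per group. Depth and the calling threshold set how many H3K4me1 peaks exist to be inside of, and without read counts no limit per site can be given.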

Other observations

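Seen from the H3K4me1 list, 59.8% of its 57156 peaks held 1 FLAG summit, 121 held more, 6.69% had one within 1 kb and 33.3% had none there. The share of H3K4me1 peaks with a FLAG summit was 35.1% for those of up to 9 tags, 50.5% at 10 to 14, 70.9% at 15 to 19, 87.4% at 20 to 29 and 99.1% at 30 or more. The 19018 H3K4me1 peaks without FLAG had a median height of 12 tags, against 15 for those with 1 FLAG summit. BRG1 was at 11.9% and 81.5% of them, H3K27ac at 21.2% and 73.4%, and an H3K4me1 peak of NanogWT cells at 66.3% and 78.7%.

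The H3K4me1 summits did not leave a gap at start sites. In NanogBiD cells 17.6% (17.3 to 17.95) of H3K4me1 summits lay within 250 bp of an annotated start and 9.25% between 250 bp and 1 kb of one, and in NanogWT cells 14.1% and 8.45%. For FLAG in NanogBiD cells the shares were 12.7% and 5.69%, for BRG1 17.2% and 6.93%, and for H3K27ac 24.7% and 8.22%. As background, H3K4me1 is usually lower at the centre of active promoters than beside it. Why summits lay at starts here was not tested.

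Pou5f1 (Oct4) and Nanog, whose coding sequences were delivered by retrovirus, carried signal of uncertain origin. OG2 mice bear a GFP transgene driven by Pou5f1 regulatory DNA, and the cells received Oct4 and tagged Nanog by retrovirus, so reads from regulatory DNA of Pou5f1, or from coding exons of both genes, cannot be told apart from those of the inserted copies. A far FLAG site of 44 tags lay 2015 bp from the Pou5f1 start, without BRG1, H3K27ac or a NanogWT FLAG peak. In NanogBiD cells an H3K4me1 peak of 78 tags and a BRG1 peak of 67 tags lay in the gene, and in NanogWT cells no peak of these targets did. Over Nanog, the tallest peaks had 12 tags for FLAG, 20 for H3K27ac and 9 for BRG1 in NanogBiD cells, with no H3K4me1 peak. In NanogWT cells they had 30, 47 and 26 tags, and 23 for H3K4me1. Over Ss18, of which the fusion holds a coding part without introns, FLAG had 7 peaks of up to 30 tags in NanogBiD cells and 2 of up to 19 in NanogWT cells, and BRG1 had 7 of up to 21 and 2 of up to 18. The tallest Ss18 site in NanogBiD cells lay in an intron, 3870 bp from the start. Peaks were counted over whole genes, introns included. Nanog, Pou5f1 and Ss18 are members of the gene lists, and the FLAG sites assigned to them were counted there.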
